A study of Mus musculus with 18 samples.

Results

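The accessible DNA around 6 genes of mouse blood stem and progenitor cells was followed: Egr1, Egr2 and Egr3 of the early growth response family and Nr4a1, Nr4a2 and Nr4a3 of the Nr4a family of nuclear receptors. ATAC-seq marks open chromatin by where the Tn5 transposase can cut, and the deposited data were 1 list of called peaks for each of 6 groups. Peaks of the 6 lists that overlapped by at least 1 bp were joined into 1 region, and a region belonged to a gene when the summit of one of its peaks lay in the gene body or within 100 kb of it on the mouse build mm10. This gave 131 regions for the 6 genes, of 94178 regions in all. Only 42 of the 131 had the member as their nearest protein-coding gene, 50 lay in a member or within 20 kb of it, and 16 had their strongest summit in a gene body. The distance alone leaves it unknown which gene a region serves.

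The groups were hematopoietic stem cells (HSC) and cells labelled HPC, the more mature progenitors. From animals 8 weeks old came knockout HSC (2 samples) and knockout HPC (2 samples), labelled Kmt2c f/f; Vav-Cre and Kmt2c -/-, beside wild-type HSC (2 samples) and wild-type HPC (4 samples). Kmt2c, also called Mll3, encodes a histone methyltransferase of enhancers, and Vav-Cre deletes floxed alleles throughout the blood lineage from development on, so the loss was not specific to HSC. From wild-type animals 16 weeks old came HSC after 5-fluorouracil (4 samples, 150 mg/kg), which kills dividing cells, and HSC after the vehicle PBS (4 samples), each given 3 times at intervals of 3 weeks. The labels give neither the surface markers of the sort nor the deleted part of Kmt2c, so the deletion was not checked in the peak lists. Each list pooled all samples of its group, so there was no replicate spread, no test and no p-value, and every difference is between 2 lists.

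The Egr proteins are zinc finger transcription factors that bind GC-rich DNA and are induced within minutes of a growth signal, as immediate early genes. Nr4a proteins are orphan nuclear receptors that act without a known hormone, bind the NBRE as monomers and are induced in the same rapid way, largely through CREB and MEF2. In mice, Egr1 holds HSC in quiescence and in the niche, Nr4a2 can drive HSC into quiescence when overexpressed, and loss of Nr4a1 together with Nr4a3 leads to acute myeloid leukemia. Egr2 and Egr3 are best known for restraining T cell activation, and Egr2 also for myelination.

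The promoters of Egr2 and of the 3 Nr4a genes lay inside regions found in all 6 lists, and their sequences are shown because the strongest summits of those regions fell on or beside them. Each is the 250 bases before a gene start in the RefSeq table of GRCm38.p6, which gives Egr2 5 starts, 5′ to 3′ along the gene's strand: chr10:67537619-67537868 on the plus strand for Egr2, chr15:101266596-101266845 on the plus strand for Nr4a1, chr2:57124004-57124253 on the minus strand for Nr4a2 and chr4:48045055-48045304 on the plus strand for Nr4a3. Capitals mark matches, on either strand, to TGACG, the core of the site bound by CREB, to the CArG box bound by SRF, and to GCGNGGGCG, the site bound by Egr proteins.
Egr2: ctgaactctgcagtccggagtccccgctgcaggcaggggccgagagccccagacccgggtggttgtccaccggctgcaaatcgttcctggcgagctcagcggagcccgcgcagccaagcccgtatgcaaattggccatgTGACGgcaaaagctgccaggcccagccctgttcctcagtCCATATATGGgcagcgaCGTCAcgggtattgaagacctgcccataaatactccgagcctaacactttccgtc
Nr4a1: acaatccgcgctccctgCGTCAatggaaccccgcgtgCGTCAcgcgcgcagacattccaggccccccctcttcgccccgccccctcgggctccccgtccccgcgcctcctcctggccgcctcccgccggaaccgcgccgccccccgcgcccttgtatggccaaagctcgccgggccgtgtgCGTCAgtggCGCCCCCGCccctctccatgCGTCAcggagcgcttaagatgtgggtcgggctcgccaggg
Nr4a2: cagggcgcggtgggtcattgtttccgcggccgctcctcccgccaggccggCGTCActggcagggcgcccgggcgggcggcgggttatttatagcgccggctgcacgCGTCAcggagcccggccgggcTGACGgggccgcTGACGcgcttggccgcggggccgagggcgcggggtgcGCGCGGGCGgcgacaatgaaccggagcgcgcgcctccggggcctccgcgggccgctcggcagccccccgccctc
Nr4a3: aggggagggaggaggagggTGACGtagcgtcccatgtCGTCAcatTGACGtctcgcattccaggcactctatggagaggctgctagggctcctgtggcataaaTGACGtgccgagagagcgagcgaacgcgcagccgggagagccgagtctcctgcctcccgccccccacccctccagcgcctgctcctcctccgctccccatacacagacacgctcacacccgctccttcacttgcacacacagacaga
The window of Nr4a1 held 4 matches to TGACG, starting at −233, −213, −69 and −40 from the gene start. That of Nr4a2 held 4, at −200, −144, −123 and −111, and that of Nr4a3 held 4, at −231, −213, −205 and −147. The 3 receptors thus shared a high number, since at least 4 matches were found in 0.137% of 32851 promoter windows of the same length and at least 1 in 17.8%. The GC content was 74.4% in the window of Nr4a1, 80.0% in that of Nr4a2 and 63.6% in that of Nr4a3. The share over all windows was not matched for GC content. Egr2 held 2 matches, at −111 and −55, and at least 2 were found in 3.90% of windows. Between them, at −72, lay the only CArG box of the 4 windows, a motif of 1.47% of all windows. An Egr site, held by 4.70% of windows, stood at −60 in Nr4a1 and at −74 in Nr4a2. The full CREB site TGACGTCA (1.55% of windows) and the NBRE letters AAAGGTCA (1.34% of windows) were not in these 4 windows. A match is a description of letters and not a bound site, and the motifs and windows were chosen with the lists in view.

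The strongest summit of each list fell close to these motifs in Egr2. It lay at −73 in knockout HSC and −74 in wild-type HSC, at −76 in knockout HPC and −76 in wild-type HPC, and at −79 in 5-fluorouracil HSC and −82 in vehicle HSC, so that all 6 summits were within 10 bases of the first base of the CArG box. The summits of Nr4a3 were also tightly placed, between −190 in vehicle HSC and −173 in knockout HPC. Those of Nr4a1 lay at the gene start itself, between −5 and 16. Those of Nr4a2 were spread more widely, between −271 in knockout HPC and −132 in vehicle HSC.

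Every one of the 6 genes had an accessible region at its start in every list, so none was closed in any group at this threshold. Fold enrichment, the authors' ratio of the signal at a summit to local background, is used here to describe a list and not as a change between lists. At Egr2 (chr10:67537008-67537980), where the fold was among the highest of the 6 starts, it was 17.6 in knockout HSC and 18 in wild-type HSC, 15.3 in knockout HPC and 18.2 in wild-type HPC, and 17.0 in 5-fluorouracil HSC and 16.1 in vehicle HSC. At Nr4a2 (chr2:57123197-57124650) it was 12.8 in knockout HSC and 13.4 in wild-type HSC, 17.9 in knockout HPC and 15.2 in wild-type HPC, and 12.6 in 5-fluorouracil HSC and 11.8 in vehicle HSC. The knockout HPC list was lowest at Egr2 and highest at Nr4a2, and with 1 list a group no spread is known against which to read such differences. In these bulk samples, a region open in fewer cells and one less open in each cell cannot be told apart.

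The start of Egr3 (chr14:70076704-70077238, 0.4 kb outside its lower annotated end) had folds of 13.1 in knockout HSC and 11.6 in wild-type HSC, 6.95 in knockout HPC and 8.53 in wild-type HPC, and 8.94 in 5-fluorouracil HSC and 9.66 in vehicle HSC. The 2 HSC lists of 8 weeks were highest there and the 2 HPC lists lowest. The region at Nr4a1 (chr15:101266391-101267330) had folds of 6.80 in knockout HSC and 5.67 in wild-type HSC, 8.42 in knockout HPC and 8.43 in wild-type HPC, and 10.6 in 5-fluorouracil HSC and 10.1 in vehicle HSC. Here the 8-week HSC lists were lowest and both 16-week lists highest. Nr4a3 (chr4:48044527-48045446) had low and even folds of 6.22 in knockout HSC and 6.55 in wild-type HSC, 5.54 in knockout HPC and 5.08 in wild-type HPC, and 4.95 in 5-fluorouracil HSC and 5.05 in vehicle HSC.

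**Figure D1:**
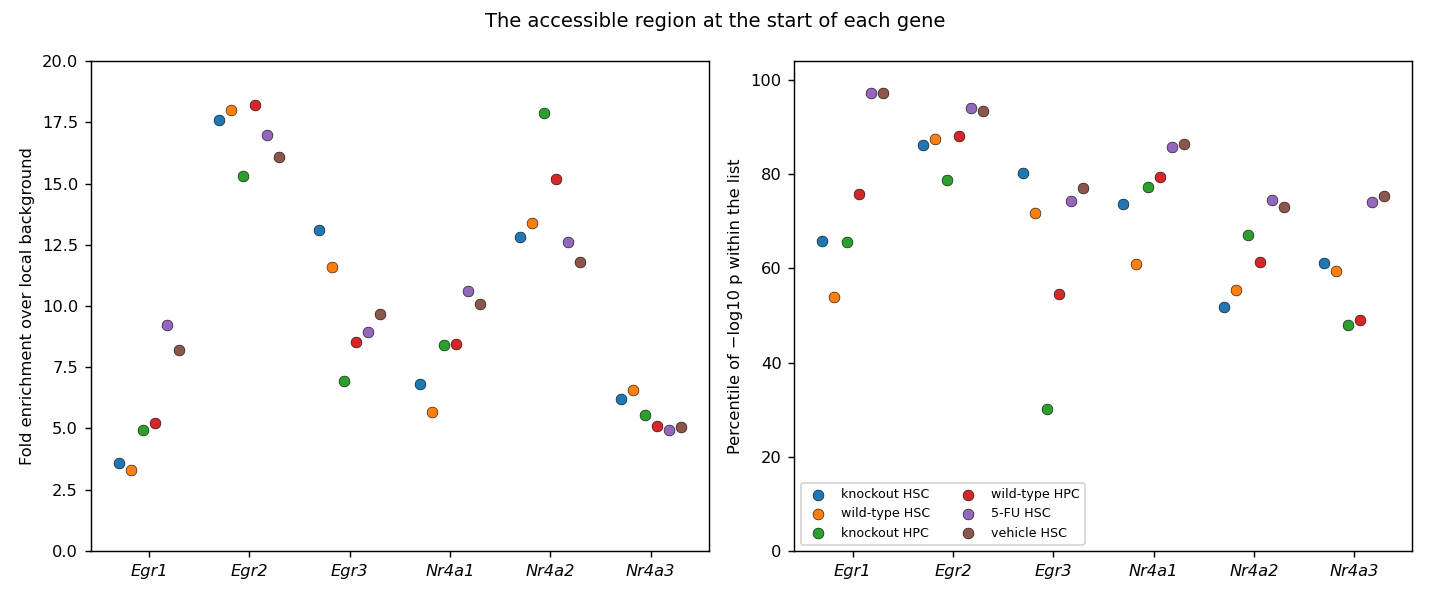
Fold enrichment over local background (left) and percentile of −log10 p within the list (right) of the region at the start of each gene, 1 point per pooled peak list (5-FU is 5-fluorouracil), with no error because each group has 1 list. The 5-fluorouracil and vehicle points are highest in both panels at Egr1 and Nr4a1, and in percentile alone at Egr2, Nr4a2 and Nr4a3. The knockout HSC and wild-type HSC points are highest in fold at Egr3 and Nr4a3.

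At the start of Egr1 the highest and lowest folds stood furthest apart as a ratio. The region at its lower annotated end (chr18:34859791-34861707) had folds of 3.60 in knockout HSC and 3.29 in wild-type HSC, 4.95 in knockout HPC and 5.23 in wild-type HPC, and 9.21 in 5-fluorouracil HSC and 8.19 in vehicle HSC. The peak was 948 bp wide in knockout HSC and 611 bp in wild-type HSC, 1019 bp in knockout HPC and 1605 bp in wild-type HPC, and 1904 bp in 5-fluorouracil HSC and 1889 bp in vehicle HSC. By −log10 p it stood above 97.3% of the regions of the 5-fluorouracil list and 97.2% of the vehicle list, against 65.8% in knockout HSC, 54.0% in wild-type HSC, 65.6% in knockout HPC and 75.7% in wild-type HPC. The 16-week lists were thus highest and widest, whichever the treatment. Their peaks were also wider over the genome, with medians of 642 bp in 5-fluorouracil HSC and 636 bp in vehicle HSC. In the other lists the medians lay between 465 and 486 bp. By percentile, both 16-week lists were also highest at the starts of Egr2, Nr4a1, Nr4a2 and Nr4a3, though not at Egr3. Age, the repeated injections, number of pooled samples and list length differ together between the 8-week and 16-week HSC lists and cannot be told apart.

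A region on the other side of Egr1 went the other way. It lay over the upper annotated end of the gene (chr18:34864861-34866290, 1430 bp) and was present in knockout HSC (fold 4.01) and wild-type HSC (fold 4.42) and in none of the other 4 lists, whose nearest peaks were between 3154 and 3466 bp away. A second region of that kind lay inside Nr4a1 (chr15:101269179-101270160, 982 bp), 2.8 kb beyond the gene start, with folds of 3.56 in knockout HSC and 3.37 in wild-type HSC. The nearest peaks there were 1109 bp away in 5-fluorouracil HSC and 1092 bp in vehicle HSC, and 2083 bp in knockout HPC and 2085 bp in wild-type HPC. Both genotypes of 8-week HSC thus shared wide regions of low fold inside or at the end of Egr1 and Nr4a1 that the 16-week lists, which were the longest of the 6, lacked.

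Such regions were few in the genome. Of 67 regions near the 6 genes that both 8-week HSC lists held, these 2 (2.99%) were in neither 16-week HSC list, against 80 of 35153 regions, or 0.228%, over the genome. Of all 21887 protein-coding genes, 50, or 0.228%, had such a region in the gene or within 5 kb, and of 28 other immediate early genes 2 had one, Fos and Jund, which encode subunits of the AP-1 transcription factor. The region at Fos (chr12:85477248-85479175, 1928 bp) covered the upper annotated end of the gene with folds of 3.27 in knockout HSC and 3.48 in wild-type HSC. The region at Jund (chr8:70702093-70704476, 2384 bp) lay 1.5 kb beyond its upper annotated end and nearest to Iqcn, with folds of 3.27 in knockout HSC and 3.33 in wild-type HSC, and was also in an HPC list. In width, Jund, Fos, Egr1 and Nr4a1 held the 4 highest places among the 80, and the next, at Hormad2, was 942 bp. The median of the 80 was 460 bp, against 834 bp for all regions of both 8-week HSC lists. These are widths of regions joined over all 6 lists, and the 80 hold no peak of a 16-week list by definition, so the 2 medians are not alike. Within each 8-week HSC list, the highest peak of a region had a median width of 486 bp. The pattern, the distance of 5 kb and the ranking by width were chosen after the values were seen, so these counts carry no test. Their −log10 p was not extreme: the Egr1 region stood above 64.3% of the knockout HSC list and 72.2% of the wild-type HSC list, and the Nr4a1 region above 31.5% and 21.7%.

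**Figure D2:**
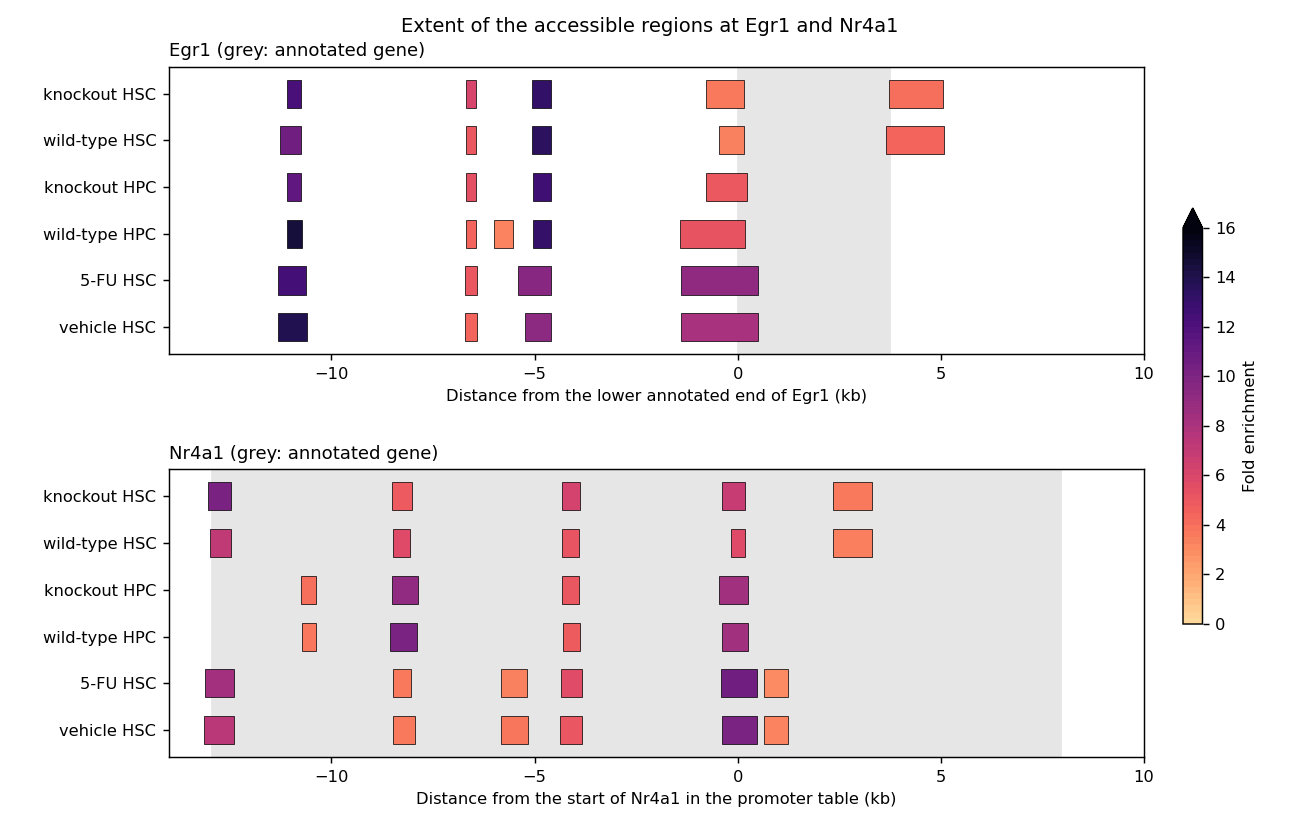
Extent of each called region (boxes) around Egr1 and Nr4a1 in the 6 lists, as distance in kb from the lower annotated end of Egr1 and from the gene start of Nr4a1, coloured by fold enrichment; grey shading is the annotated gene. The box over the upper end of Egr1 and the box 2.8 kb into Nr4a1 appear only in the rows of knockout HSC and wild-type HSC.

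The number of regions differed widely between the genes. Nr4a1 had 46 regions, more than 99.5% of protein-coding genes, whose median was 15, and Egr3 had 28, more than 86.8%. Egr1 had 19, Egr2 15, Nr4a3 12 and Nr4a2 11, more than between 35.5% and 62.2% of genes. Most regions around Nr4a1 and Egr3 were nearest to another gene: 10 of 46 had Nr4a1 as the nearest gene, with 11 at Krt80 and 10 at Acvr1b, and 4 of 28 had Egr3, with 11 at Pebp4. Of the 12 regions of Nr4a3, 9 were nearest to it and 3 to Stx17.

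**Figure D3:**
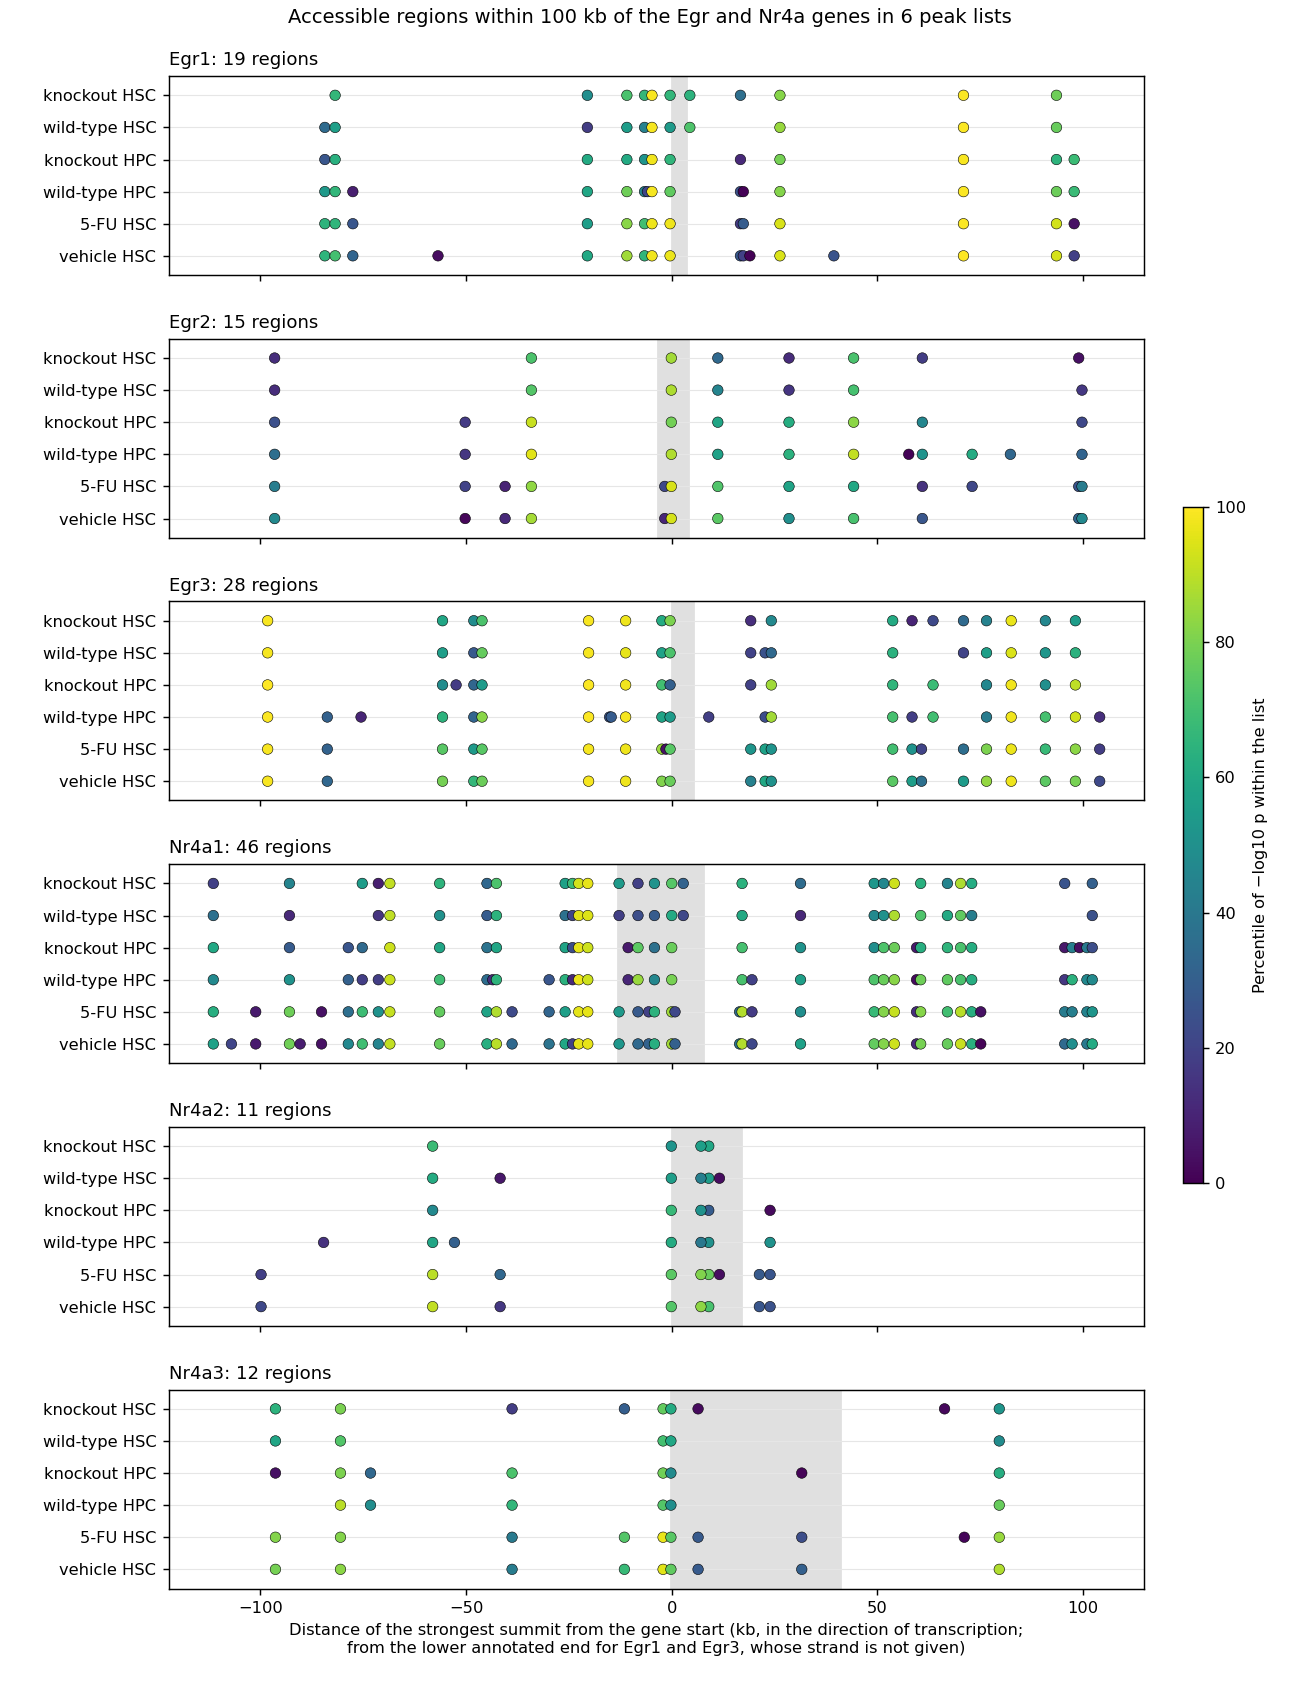
Every region of the 6 genes in each of the 6 lists, placed by the distance of its strongest summit from the gene start in kb (from the lower annotated end for Egr1 and Egr3) and coloured by the percentile of −log10 p within the list; grey shading is the annotated gene. Columns of points that run through all 6 rows are the 59 shared regions, and the 12 regions of both 16-week lists alone stand in the bottom rows.

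Many of these regions were found throughout. Of the 131 regions, 59 (45.0%) were in all 6 lists, against 32.2% of all regions, and 20 (15.3%) were in a single list, against 18.1%. The shared ones numbered 9 of 19 at Egr1, 6 of 15 at Egr2, 14 of 28 at Egr3, 22 of 46 at Nr4a1, 4 of 11 at Nr4a2 and 4 of 12 at Nr4a3. Of the 20 found once, 10 were in wild-type HPC, 5 in vehicle HSC, 2 in 5-fluorouracil HSC, 2 in knockout HPC and 1 in knockout HSC. Of 8 regions that reached within 1 kb of the gene start used here, or of either annotated end of Egr1 and Egr3, 6 were in all 6 lists. By the strongest summit of the rest, so were 16 of 41 in a gene body or within 20 kb (39.0%), and 37 of 82 farther out (45.1%). Another 12 regions (9.16%) were in both 16-week HSC lists and no other, near the 10.8% of all regions.

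Regions away from the starts carried some of the highest enrichments. Near Egr1, a region 4.8 kb outside its lower end (chr18:34855794-34856620) was strong in every list, with folds of 13.3 in knockout HSC and 13.6 in wild-type HSC, 12.7 in knockout HPC and 13.2 in wild-type HPC, and 9.55 in 5-fluorouracil HSC and 9.32 in vehicle HSC. Its fold was lowest in both 16-week lists, the reverse of the gene's start, and by −log10 p it stood above 97.5% to 99% of the regions of every list. Over all regions of the 6 genes the median fold was also lowest in those lists, at 8.94 in 5-fluorouracil HSC and 8.84 in vehicle HSC. In the remaining lists the median lay between 11.2 and 12.1. A second strong region in the Egr1 window, 70.9 kb away (chr18:34931459-34932549), lay at Etf1, with folds between 20 in vehicle HSC and 23.6 in wild-type HSC.

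Near Egr2, a region 30.7 kb outside the gene (chr10:67503352-67504442) had folds of 21.2 in knockout HSC and 20.2 in wild-type HSC, 21.8 in knockout HPC and 26.3 in wild-type HPC, and 20.7 in 5-fluorouracil HSC and 21.5 in vehicle HSC. Its fold was highest in wild-type HPC, and so was that of a region 44.2 kb beyond the start (chr10:67581781-67582524), at 27.1 against 17.5 to 24.1 in the other 5 lists. The shared regions of the Egr3 window with the highest mean percentile of −log10 p were both in Pebp4, at chr14:69978763-69979555 and chr14:70055956-70057634, with folds of 32.2 to 36.4 and of 17.0 to 22.1.

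Nr4a1 had a pair of strong regions below its annotated body, nearest to Nr4a1 itself. The one 20.4 kb before the gene start (chr15:101246156-101246881) had folds of 13.5 in knockout HSC and 13.1 in wild-type HSC, 10.9 in knockout HPC and 11 in wild-type HPC, and 12.8 in 5-fluorouracil HSC and 12 in vehicle HSC. HSC lists were above HPC lists there. Its neighbour 22.6 kb before the start (chr15:101243776-101244529) ranged between 10.6 in knockout HSC and 12.8 in wild-type HPC.

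Nr4a2 had few regions, and those in all lists lay at the start, inside the gene and far upstream. The region in its body, 7.1 kb beyond the start (chr2:57116350-57117431), had folds between 6.84 in wild-type HPC and 9.72 in vehicle HSC, and one 58.1 kb before the start (chr2:57181419-57182525) had folds between 14.2 in knockout HPC and 17.4 in vehicle HSC. Beside Nr4a3, a region 2.1 kb before the start (chr4:48042596-48043763) had folds of 8.03 in knockout HSC and 7.70 in wild-type HSC, 8.88 in knockout HPC and 7.48 in wild-type HPC, and 11.6 in 5-fluorouracil HSC and 10.5 in vehicle HSC, highest in both 16-week lists. The other shared region of this gene named for its percentile lay 80.5 kb before the start (chr4:47964639-47965265), with folds between 26.6 in wild-type HSC and 37.2 in wild-type HPC.

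Loss of Kmt2c in HSC was set against wild-type HSC at 8 weeks, which asks whether this enhancer regulator alters access to the quiescence genes. Of 83 regions in either list, 67 were in both. Knockout HSC alone held 11, or 13.3% (95% Wilson interval 7.56 to 22.2%), against 23.5% of all regions, and wild-type HSC alone held 5, or 6.02% (2.60 to 13.3%), against 7.24%. The surplus in knockout HSC was therefore no larger around these genes than over the genome, where the knockout list held more regions than the wild-type list. By gene, regions of knockout HSC alone and wild-type HSC alone numbered 1 and 1 at Egr1, 2 and 1 at Egr2, 2 and 1 at Egr3, 2 and 0 at Nr4a1, 0 and 2 at Nr4a2, and 4 and 0 at Nr4a3.

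Nr4a3 thus had the most regions in knockout HSC alone, with 9 regions in that list and 5 in wild-type HSC. The highest of them by −log10 p, 11.5 kb before the start (chr4:48033375-48034167), had a fold of 14.7 in knockout HSC and was also in 5-fluorouracil HSC (22.6) and vehicle HSC (17.7), both wild type. The 3 highest places by −log10 p among the 11 belonged to that region, to one in Acvr1b in the Nr4a1 window (chr15:101191200-101191973, fold 12.7 in knockout HSC) and to one 12.9 kb outside Egr1 (chr18:34877602-34878143, fold 15.1 in knockout HSC). In the other direction the 3 highest were a region at Kdm3b in the Egr1 window (chr18:34776650-34778073, fold 9.29 in wild-type HSC), one in Bin3 in the Egr3 window (chr14:70099758-70100594, fold 9.65) and one 95.4 kb outside Egr2 (chr10:67637374-67637846, fold 12.2).

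The 16-week HSC lists, both wild type, held most regions of either genotype alone. Of the 11 regions in knockout HSC and not wild-type HSC, 9 (81.8%, 52.3 to 94.9%) were also in a 16-week HSC list, against 94.8% of all such regions, and so were 5 of the 5 in wild-type HSC and not knockout HSC, against 97.0%. Both shares rest on few regions. No region of the 131 was in both knockout lists and no wild-type list, a pattern of 0.0287% of all regions, and 1 (0.763%, against 0.847%) was in all 4 wild-type lists and neither knockout list. That one was the Bin3 region, with folds of 9.65 in wild-type HSC, 6.73 in wild-type HPC, 9.51 in 5-fluorouracil HSC and 10.2 in vehicle HSC. With both lists limited to the 38824 regions of the shorter one, 7 regions (8.86%) were in knockout HSC alone and 9 (11.4%) in wild-type HSC alone, against 12.9% of all regions each way, so the surplus of knockout HSC did not hold at equal length.

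In HPC, the knockout list, which pooled 2 samples, held fewer regions than the wild-type list, which pooled 4. Of 102 regions in either list, 5 were in knockout HPC alone, or 4.90% (2.11 to 11%), against 5.12% of all regions, and 20 in wild-type HPC alone, or 19.6% (13.1 to 28.4%), against 23.9%. Both shares were near those of the genome, where the knockout HPC list was the shorter. Egr3 had 2 regions in knockout HPC alone and 8 in wild-type HPC alone, Nr4a1 1 and 4, Egr1 0 and 3, Egr2 0 and 3 and Nr4a2 0 and 2, whereas Nr4a3 had 2 and 0. Of the 20 regions in wild-type HPC and not knockout HPC, 10 (50%, 29.9 to 70.1%) were also in an HSC list, against 71.3% of all such regions.

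Of this pair, knockout HPC alone held a region 13.9 kb outside Egr3 (chr14:70096147-70096753) at fold 8.06 and one 96.3 kb before Nr4a3 (chr4:47947985-47949523) at fold 9.27. Both were also in all 4 HSC lists, so only wild-type HPC lacked them. A region 52.4 kb outside Egr3 in Pebp4 (chr14:70024697-70025045), at fold 7.49 in knockout HPC, was in no other list. The 3 highest in wild-type HPC alone were 2 regions 68.6 and 78.0 kb outside Egr2 (chr10:67610637-67611249 and chr10:67619940-67620348, folds 16.6 and 14.8), and one in Pebp4 in the Egr3 window (chr14:69993053-69993930, fold 12). With both lists limited to 50999 regions, 11 regions (12.1%) were in knockout HPC alone and 9 (9.89%) in wild-type HPC alone, against 11.3% of all regions each way, so the surplus of wild-type HPC did not hold at equal length.

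HSC after repeated 5-fluorouracil and after vehicle shared most regions. Of 113 regions in either list, 103 were in both, 4 were in 5-fluorouracil HSC alone, or 3.54% (1.39 to 8.75%), against 4.77% of all regions, and 6 in vehicle HSC alone, or 5.31% (2.46 to 11.1%), against 15.5%. The interval of the vehicle share lay below the share over all regions. So did that of knockout HSC alone beside wild-type HSC (7.56 to 22.2% against 23.5%). It was likewise so for wild-type HPC alone beside wild-type HSC (23.3 to 40.8% against 41.9%). These intervals cover counting error only, so this was not particular to the 5-fluorouracil pair and was not tested. Egr1 and Nr4a1 each had 0 regions in 5-fluorouracil HSC alone and 3 in vehicle HSC alone, and Egr2, Egr3, Nr4a2 and Nr4a3 each had 1 and 0.

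The rest were of low fold or far from the genes. In 5-fluorouracil HSC alone stood the region 68.6 kb outside Egr2 already named in wild-type HPC (fold 7.29), one 1.4 kb outside Egr3 (chr14:70075652-70076033, fold 2.39) and one inside Nr4a2 (chr2:57112336-57112541, fold 2.08). In vehicle HSC alone stood one at Etf1 in the Egr1 window (chr18:34900395-34900915, fold 7.80) and 2 in the Nr4a1 window (chr15:101159689-101160288, fold 5.81, and chr15:101242632-101242942, fold 2.16). Of all lists, only 5-fluorouracil HSC lacked the last of these, whose fold was 5.85 in knockout HSC. The Nr4a2 region was also in wild-type HSC (fold 3.87). With both lists limited to 70770 regions, 9 (8.18%) were in 5-fluorouracil HSC alone and 3 (2.73%) in vehicle HSC alone, against 8.41% of all regions each way, so which list held more depended on the length of the lists.

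Between cell types, wild-type HSC had fewer regions than wild-type HPC around all 6 genes. Of 105 regions in either list, 8 were in wild-type HSC alone, or 7.62% (3.91 to 14.3%), against 4.86% of all regions, and 33 in wild-type HPC alone, or 31.4% (23.3 to 40.8%), against 41.9%. Regions of wild-type HSC alone and wild-type HPC alone numbered 1 and 5 at Egr1, 0 and 5 at Egr2, 2 and 8 at Egr3, 2 and 10 at Nr4a1, 2 and 3 at Nr4a2, and 1 and 2 at Nr4a3. The wild-type HSC list pooled 2 samples and the wild-type HPC list 4. Of the 33 regions in wild-type HPC and not wild-type HSC, 20 (60.6%, 43.7 to 75.3%) were in a 16-week wild-type HSC list, against 69.0% of all such regions, so most of them were not closed in every HSC list. With both lists limited to 38824 regions, 15 (18.5%) were in wild-type HSC alone and 9 (11.1%) in wild-type HPC alone, against 19.1% of all regions each way.

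The 3 highest in wild-type HSC alone were the regions at Egr1 and in Nr4a1 that the 8-week HSC lists shared, and the one 96.3 kb before Nr4a3 already named (fold 17.5). The 3 highest in wild-type HPC alone were one in Ccar2 in the Egr3 window (chr14:70140584-70140992, fold 18.8), one at Hspa9 in the Egr1 window (chr18:34958379-34959403, fold 10.4) and one 38.8 kb before Nr4a3 (chr4:48006121-48006826, fold 24.7). Each of these was also in an HSC list outside this pair. The Ccar2 region was in knockout HSC, and the Hspa9 region was in 5-fluorouracil HSC and vehicle HSC. The region before Nr4a3 was in knockout HSC, 5-fluorouracil HSC and vehicle HSC.

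In knockout cells the gap between HSC and HPC was narrower. Of 92 regions in either list, 10 were in knockout HSC alone, or 10.9% (6.01 to 18.9%), against 16.3% of all regions, and 14 in knockout HPC alone, or 15.2% (9.29 to 23.9%), against 22.8%. The narrowing was not tested, and each of these 2 lists pooled 2 samples. Of the 14 regions in knockout HPC and not knockout HSC, 10 (71.4%, 45.4 to 88.3%) were in a 16-week HSC list, against 63.6% of all such regions. Nr4a3 had 3 regions in knockout HSC alone and 2 in knockout HPC alone, and Nr4a1 had 3 and 6. The 3 highest in knockout HSC alone were the Egr1 region of the 8-week HSC lists and the 2 regions of all HSC lists described next. The 3 highest in knockout HPC alone were the Hspa9 region (fold 11.2) and 2 regions in Krt80 in the Nr4a1 window (chr15:101363824-101364797 and chr15:101367557-101367851, folds 8.28 and 8.58). All of these were also in wild-type HPC and in both 16-week HSC lists. With both lists limited to 47054 regions, 12 (13.8%) were in knockout HSC alone and 9 (10.3%) in knockout HPC alone, against 19.2% of all regions each way.

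Regions that kept to 1 cell type in every list were rare. In all 4 HSC lists and neither HPC list were 2 regions (1.53%, against 1.83% of all regions). One lay at the lower end of the annotated Nr4a1 gene, 12.8 kb before the gene start used here (chr15:101253701-101254449), with folds of 10.2 in knockout HSC, 7.08 in wild-type HSC, 8.34 in 5-fluorouracil HSC and 7.39 in vehicle HSC. The other lay in Ccar2, 65.6 kb outside Egr3 (chr14:70147933-70148442), with folds of 16.7 in knockout HSC, 13 in wild-type HSC, 10 in 5-fluorouracil HSC and 15 in vehicle HSC. In both HPC lists and no HSC list were 2 regions (1.53%, against 4.02%). One was 73.2 kb before Nr4a3 (chr4:47971816-47972443), with folds of 15.8 in knockout HPC and 19.6 in wild-type HPC, and one was inside Nr4a1, 10.6 kb before the gene start (chr15:101256101-101256463), with folds of 4.03 in knockout HPC and 3.63 in wild-type HPC. Nr4a1 thus held 1 region of each pattern within its annotated body, about its upstream end. By −log10 p the HPC one was weak, above only 6.7% of the knockout HPC list and 10.6% of the wild-type HPC list. The HSC one stood above 54.0% of the knockout HSC list, 18.5% of wild-type HSC, 53.8% of 5-fluorouracil HSC and 52.6% of vehicle HSC.

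**Figure D4:**
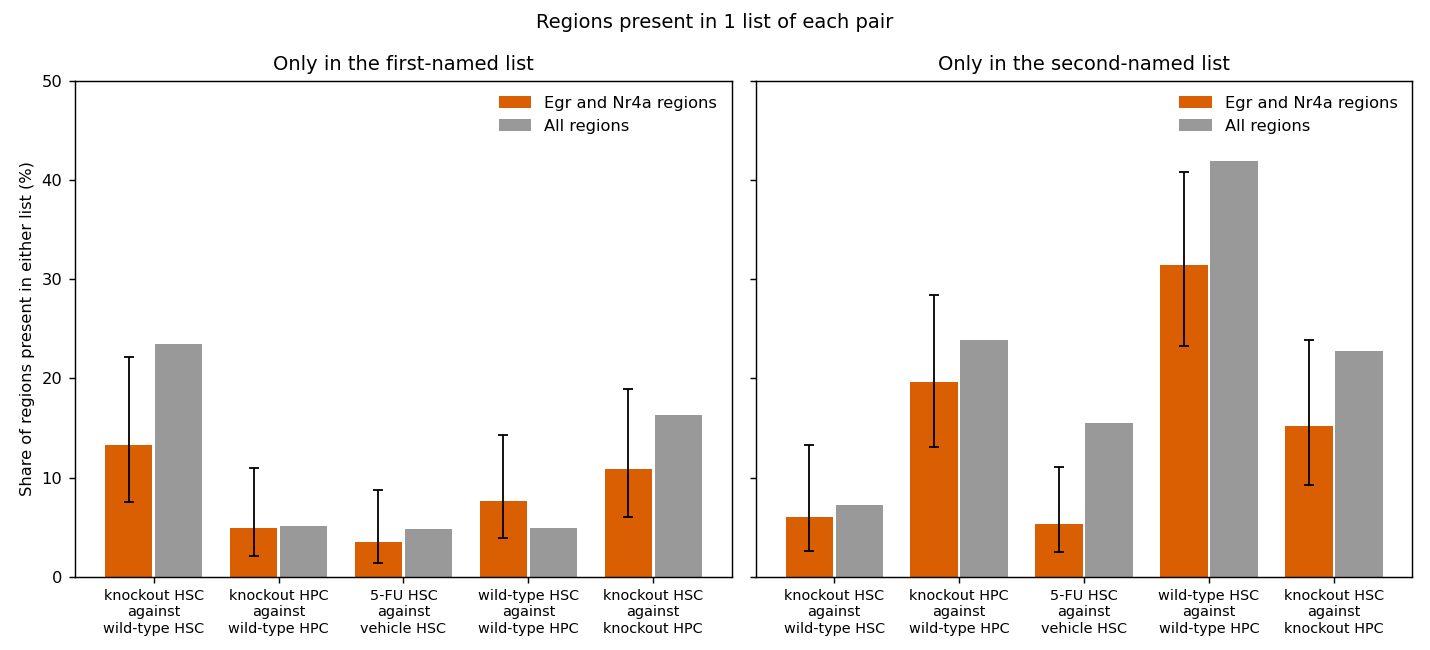
Share of the regions in either list of a pair that only the first-named list (left) or only the second-named list (right) held, in percent, for the regions of the 6 genes (orange, with 95% Wilson intervals for counting error only) and for all regions of the genome (grey). Orange bars are at or below grey bars except for regions of wild-type HSC alone, at 7.62% against 4.86%.

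Other genes of the pathway were followed in the same way, with regions counted within 100 kb of each gene. More regions in knockout HSC alone than in wild-type HSC alone were counted at 4 of the 6 Egr and Nr4a genes and fewer at 1, against 57.9% and 8.94% of all protein-coding genes. Of 28 other immediate early genes, 24 had more (85.7%) and 1 had fewer (3.57%). The largest surpluses were at Sik1, a kinase that restrains CREB signalling (6 regions in knockout HSC alone and 0 in wild-type HSC alone), at the transcription factor genes Maff (5 and 0) and Atf3 (4 and 0), and at Fosb of AP-1 (4 and 0).

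In HPC, 1 of the 6 Egr and Nr4a genes, Nr4a3, had more regions in knockout HPC alone and 5 had fewer, against 4.45% and 68.5% of all genes. The immediate early genes had 4 with more (14.3%) and 21 with fewer (75%), and Ier2 (1 and 8), Jun of AP-1 (0 and 7), the mRNA decay factor Zfp36 (1 and 8) and the neuronal gene Arc (0 and 6) were furthest. After 5-fluorouracil, 4 of the 6 members had more regions than with vehicle and 2 had fewer, against 9.75% and 58.6% of all genes, and each surplus was of 1 region. The immediate early genes had 3 with more (10.7%) and 21 with fewer (75%), with Fosb (1 and 8), Sik1 (0 and 7), Junb of AP-1 (0 and 5) and Zfp36 (0 and 5) furthest.

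Between cell types, 0 of the 6 members had more regions in wild-type HSC alone and 6 had fewer, against 2.43% and 77.8% of all genes, and so did 0 and 28 of the immediate early genes. Fos (2 and 15), the antiproliferative Btg2 (1 and 12), Ier5 (1 and 12) and Arc (0 and 10) were furthest. In knockout cells 2 members had more in HSC alone and 4 had fewer, against 24.6% and 43.7% of all genes. The immediate early genes had 5 with more (17.9%) and 22 with fewer (78.6%), with Fos (2 and 15) again furthest.

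Of 14 regulators and partners, 12 had more regions in knockout HSC alone (85.7%, against 57.9% of all genes) and 0 had fewer (against 8.94%), led by the transcription factor genes Mef2d (6 and 0) and Rxrb, an Nr4a heterodimer partner (8 and 3), with Egr4 (3 and 0) and Srf (4 and 1) next. In HPC, 1 had more in knockout HPC alone (7.14%, against 4.45%) and 11 had fewer (78.6%, against 68.5%), with Mef2d and Elk4, a cofactor of SRF, at 0 and 5 each. After 5-fluorouracil 1 had more (7.14%, against 9.75%) and 9 had fewer (64.3%, against 58.6%), with Wt1, a zinc finger factor of similar binding sites to Egr1, at 1 and 5. All 14 had fewer in wild-type HSC alone (against 77.8% of all genes), where the corepressor gene Nab2, whose product binds Egr proteins, had 1 against 8 in wild-type HPC alone. In knockout cells 4 had more in HSC alone (28.6%, against 24.6%) and 6 had fewer (42.9%, against 43.7%).

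Of 12 cell cycle inhibitor and quiescence genes, 11 had more regions in knockout HSC alone (91.7%, against 57.9% of all genes) and 0 had fewer (against 8.94%), led by Foxo3, which maintains HSC quiescence (7 and 0), and with the CDK inhibitor gene Cdkn1b and Foxo1 at 3 and 0 each. In HPC, 0 had more in knockout HPC alone (against 4.45%) and 10 had fewer (83.3%, against 68.5%), with Foxo3 at 1 and 8 and the CDK inhibitor gene Cdkn1a at 2 and 7. After 5-fluorouracil 2 had more (16.7%, against 9.75%) and 7 had fewer (58.3%, against 58.6%), with Txnip at 0 and 5. All 12 had fewer in wild-type HSC alone (against 77.8%), with Cdkn1a at 1 and 14, and in knockout cells 3 had more in HSC alone (25%, against 24.6%) and 6 had fewer (50%, against 43.7%). Except for the Egr and Nr4a genes after 5-fluorouracil, the commoner direction of each list was that of all protein-coding genes, though its share was often higher. Genes with equal counts lower both shares. For knockout against wild-type HSC they were 7263 of all 21887 genes. In the gene lists they were 3 of 28 immediate early genes, 2 of 14 regulators and partners and 1 of 12 quiescence genes. Neighbouring genes also share regions. Whether these shares differ from those of all genes was not tested.

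Over the series, the lists held between 56976 peaks (38824 regions) in wild-type HSC and 163058 peaks (79751 regions) in vehicle HSC, and read depth was unknown. Regions within 1 kb of the start were found at all 4 blood markers in every list, and at 5 of 6 HSC markers in knockout HSC, 4 in wild-type HSC and 6 in every other list, HPC included. Slamf1, a defining HSC marker, had none in either 8-week HSC list. Of 6 progenitor and myeloid markers, 1 had a region in knockout HSC, 2 in wild-type HSC, 2 in knockout HPC, 2 in wild-type HPC, 3 in 5-fluorouracil HSC and 4 in vehicle HSC, with Klf1 in every list and Elane and Ctsg in none. Of 9 markers of other cells 1 had a region in knockout HSC, 1 in wild-type HSC, 1 in knockout HPC, 3 in wild-type HPC, 2 in 5-fluorouracil HSC and 2 in vehicle HSC. The part of other cells in the results was not tested.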

How the data were processed

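ATAC-seq of 18 samples in 6 groups was used. Per the submitters' processing notes, Bowtie2, MACS2 and the build mm10 (GRCm38) were used, with versions not given in the sources used here. Per the labels, the molecule is RNA, which is at odds with the assay. The authors deposited 1 peak list per group, which all its samples name, so lists were taken as pooled. How reads were combined and filtered is unstated there, and depth was unknown. Each deposited peak carries a fold enrichment, the ratio of the summit signal to local background, a −log10 p, and a summit offset, all from the authors' peak caller. Folds of different lists are set side by side as values, and their order is not a change between groups.

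Peaks of the 6 lists overlapping by at least 1 bp were chained into regions, and the highest peak of a list gave its value there. Percentiles rank −log10 p over the regions of a list. The 95% Wilson intervals cover counting error only and treat neighbouring regions as independent. Genes and promoters came from RefSeq tables of GRCm38.p6, and all 6 members matched. The gene table has no strand and no exons, so either annotated end stood for the start of Egr1 and Egr3.

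Named were each start region, the 2 regions per gene with the highest mean percentile among those in all 6 lists, regions of 1 cell type or 1 genotype in every list, the 3 highest by percentile in each direction, and up to 4 genes of each list with the largest net number. One result that this rule named is not reported here. Members and lists were chosen with earlier results of these data known. Chosen after these values were seen were the pattern of 8-week without 16-week HSC lists, its distance and width ranking, the naming of Fos and Jund, the look-up of regions of 1 list in lists outside the pair, the motifs and the promoter length. The Egr2 window holds the strongest summit of all 6 lists and replaced a neighbouring window that had been examined first, which held a CArG box and no TGACG. Alternatives were lists of equal length, the weakest 25% of peaks removed, merging within lists, summits within 200 bp, 20 kb, and nearest gene only. The counting was tested on simulated lists. Python 3.11.15, pandas 2.3.3, numpy 2.4.6, scipy 1.17.1 and matplotlib 3.10.9 were used.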

Additional observations from a re-analysis of the deposited data

Results flagged for a closer look

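Around 3 genes the net number of regions, those of the knockout list alone minus those of the wild-type list alone, was positive in HSC and negative in HPC. It was 1 in HSC and -3 in HPC at Egr2, 1 in HSC and -6 in HPC at Egr3, and 2 in HSC and -3 in HPC at Nr4a1. The difference was not tested, since each group had 1 list. Over all protein-coding genes, 57.9% had more regions in knockout HSC alone than in wild-type HSC alone, and 68.5% had fewer in knockout HPC alone than in wild-type HPC alone. With lists of equal length, the regions of knockout alone and wild type alone at Egr2 were 1 and 3 in HSC and 1 and 2 in HPC. At Egr3 they were 1 and 2 in HSC and 2 and 4 in HPC, and at Nr4a1 2 and 1 in HSC and 6 and 1 in HPC. The opposite signs were thus absent at all 3 genes when the lists were equally long.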

How the results depend on the processing

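No paired analysis was possible because each group had 1 pooled list with no column per replicate, and for the same reason no replicate could be left out. Of 62 recomputed counts for 11 results, 27 stayed within 1.5 times the reported count and 35 did not. Merging within each list and summits within 200 bp moved none. Within 20 kb there were 50 regions in place of 131, and 42 had the member as nearest gene. Pairs below give the counts of the first list alone and the second alone. Within 20 kb they were 3 and 2 for knockout against wild-type HSC, 2 and 8 for knockout against wild-type HPC, 2 and 2 for 5-fluorouracil against vehicle HSC, 5 and 10 for wild-type HSC against wild-type HPC, and 5 and 3 for knockout HSC against knockout HPC. With the nearest gene only they were 4 and 1, 2 and 3, 2 and 1, 5 and 9, and 5 and 5 in the same order. With lists of equal length they were 7 and 9 for knockout against wild-type HSC, 11 and 9 for knockout against wild-type HPC, 9 and 3 for 5-fluorouracil against vehicle HSC, and 15 and 9 for wild-type HSC against wild-type HPC. For knockout HSC against knockout HPC the second was 9 and the first stayed within 1.5 times, so the commoner side turned in all 5 pairs at equal length. With the weakest 25% of peaks removed, wild-type HSC alone held 3, knockout HPC alone 2 beside wild-type HPC, 5-fluorouracil HSC alone 2 and knockout HPC alone 9 beside knockout HSC. The cause was not tested, beyond fewer regions being counted in the narrower settings. No depth is known, and counts of a few regions per gene limit what any pair can show.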
